A study of Mus musculus with 8 samples.

Results

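The genes described here encode chemokines, small secreted proteins that guide cell movement, and their receptors. They were taken from the count tables by symbol: typical receptors of the *Ccr*, *Cxcr*, *Cx3cr* and *Xcr* families, the atypical receptors *Ackr1* to *Ackr4* and *Ccrl2*, and the ligands named *Ccl*, *Cxcl* and *Xcl*. The 58 genes described, of 48321 gene symbols in the files, were 16 typical receptors, 5 atypical receptors and 37 ligands. RNA had been sequenced from peripheral CD8+ T cells, the cytotoxic lineage of T lymphocytes, from the spleen of C57BL/6 mice. There were 4 groups of 2 libraries: WT at day 0, KO at day 0, WT at day 5 and KO at day 5. The series gives the mutant mice as Satb1 F/F; E8I-cre, so that *Satb1*, which encodes a chromatin organiser of T cells, is floxed and the recombinase is driven by an enhancer of *Cd8a* that is active in mature CD8 cells. Cells of the series were cultured and stimulated in vitro. Day 0 is read here as before culture and day 5 as after it. The methods of the study describe anti-CD3e and anti-CD28 antibodies followed by IL-2, or prolonged antibody stimulation, and do not state which of these was applied to the day 5 cells. The labels give no age, no alleles for the WT mice and no source that pairs libraries with animals, so the spread between libraries may be technical. For its mice in general, the study's methods give an average age range and mixed sexes, and nothing per library. No library of uncultured cells at day 5 was analysed here, so that time and culture cannot be told apart.

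Chemokine receptors are G protein-coupled receptors that signal through inhibitory G proteins to the cytoskeleton and the integrins. Each T cell state carries its own set: receptors for lymphoid organs or gut are typical of resting cells, and receptors for ligands made in inflamed tissue are typical of activated and memory cells. Atypical receptors bind chemokines without the classical G protein signal. CD8+ T cells are also a source of ligands, above all the *Ccl3*, *Ccl4*, *Ccl5* and *Xcl1* products that draw other leukocytes.

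The libraries held 4170126 to 11117971 counts in genes. All 8 of the T cell and CD8 markers passed the filter on low counts, and their summed level was 14386 to 15660 CPM (counts scaled to a common library size) at day 0 and 9450 to 10519 CPM at day 5. *Satb1* itself was at 97.8 and 91.6 CPM in WT and 144 and 125 CPM in KO-labelled libraries at day 0, against the label, and at 96.5 and 116 CPM in WT and 56.5 and 62.3 CPM in KO-labelled libraries at day 5. The deleted part of the gene cannot be singled out in counts per gene. The KO groups are therefore called KO-labelled libraries throughout, and each direction below is that of the labels.

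Most chemokine genes were silent or nearly silent in these cells. No count was found for 11 of the 58, namely 10 ligands and 1 receptor, and another 21 never had more than 3 counts in a library. A count of 0 allows up to 3 counts, which is 0.257 to 0.723 CPM depending on the library. A further 11 had more than 3 counts in some library but did not pass the filter on low counts, the highest at 15. The remaining 15 were tested: 8 typical receptors, 2 atypical receptors and 5 ligands. Of these 15, 8 passed the filter through libraries of both days, 3 only through day 5 libraries (*Ccl4*, *Cxcl10* and *Ccr4*) and 4 only through day 0 libraries (*Xcl1*, *Ccr9*, *Cxcr5* and *Xcr1*). A gene that is high on 1 day and near 0 on the other passed through the first alone, so the counts of calls below describe the genes that passed and not the 58.

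From day 0 to day 5, the receptors *Ccr2*, *Ccr4* and *Cxcr3*, the atypical receptor *Ccrl2* and the ligand *Ccl5* rose, while the receptors *Ccr9* and *Cxcr5* fell, in both genotypes. In WT, 8 of the 15 tested were called at an adjusted p under 0.05, 6 higher and 2 lower. Over all genes tested in that comparison 48.3% were called, 24.7% higher and 23.6% lower. In KO-labelled libraries, 8 of the 15 were called, 5 higher and 3 lower, where 50.2% of all genes tested were called, 26.2% higher and 24.0% lower. The lists of calls shared 7 genes, all 7 with the same direction. *Ccl4* was called in WT and *Xcl1* in KO-labelled libraries, each in 1 genotype alone in this fit, and 6 genes were called in neither. *Ccl4* passed in KO-labelled libraries as well in some alternatives, as described with its values. Between genotypes at day 0, 3 of the 15 were called: *Ccl5* and *Ccrl2* higher and *Cxcr5* lower in KO-labelled libraries. Over all genes tested, 1.80% were called, 0.913% higher and 0.889% lower. At day 5 none was called, where 1.63% of all genes tested were, 1.31% higher and 0.318% lower. The unadjusted edgeR p was under 0.05 for 5 of the 15 at day 0 and for 1 at day 5 (*Ccl5*), beside 1742 and 1775 of all 12597 genes tested. DESeq2, fitted to 47 of the 58 and to 34404 genes in all, called 4 at day 0 and 0 at day 5, beside 277 and 319 of all genes. Its own filter left some fitted genes of low count without an adjusted p. The genotype by day interaction, which asks whether the genotype difference itself differed between days, called none of the 15 in edgeR or in DESeq2, where edgeR called 0.159% of all genes tested. The unadjusted edgeR p was under 0.05 for 6 of the 15, beside 1562 of all 12597 genes tested. The comparisons share libraries: each WT or KO group enters a comparison of days and a comparison of genotypes.

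**Figure D1:**
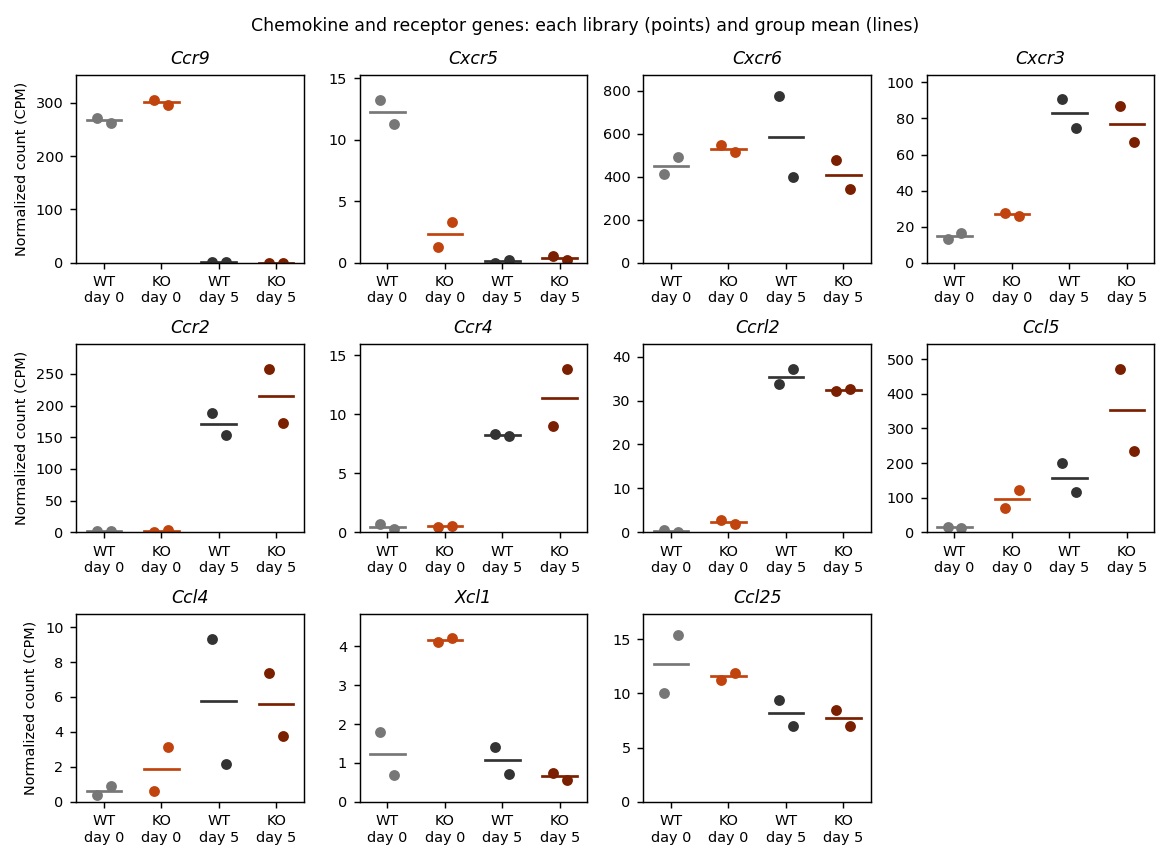
Normalized count (CPM, linear axis from 0, its own scale in each panel) of the 11 chemokine and receptor genes named by the rule. Points are single libraries, lines are group means, and KO stands for KO-labelled libraries. *Ccr9* is at 262 to 306 CPM in the 4 day 0 libraries and under 1 CPM at day 5, *Ccr2* does the opposite, and *Ccl5* differs between genotypes at day 0 without overlap.

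Among the receptors, *Ccr9* and *Cxcr5* were the ones that fell. *Ccr9* (chromosome 9, 123678439 to 123784330, plus strand, GRCm38) encodes the receptor for CCL25, which guides T cells to the small intestine and thymus. It was at 272 and 262 CPM in WT and at 306 and 296 CPM in KO-labelled libraries at day 0. At day 5 it had 3 counts and 1 count in WT and 1 count in each library labelled KO. All 4 day 0 libraries stood far above all 4 day 5 libraries. The ratio of day 0 to day 5 was 658 in WT (exact 95% counting interval 257 to 2415) and 1621 in KO-labelled libraries (449 to 13390), and the intervals cover counting error only. Both falls were called by edgeR with Benjamini-Hochberg adjustment (adjusted p = 9.28e-11 and 3.95e-11). Of the exon length of *Ccr9*, 19.0% is shared with genes of the other strand and 2.62% with genes of the same strand, and the strand setting of the counting was not stated. Its genotype difference at day 0 was a log2 fold change of 0.17 (SE 0.12, edgeR adjusted p = 0.609). *Ccl25*, its ligand, was itself detected, at 10.02 and 15.4 CPM in WT and 11.2 and 11.9 CPM in KO-labelled libraries at day 0, and at 9.35 and 6.99 CPM and 8.46 and 7.01 CPM at day 5. Of the exon length of *Ccl25*, 2.74% is shared with *Elavl1* on the other strand, and the part of *Elavl1* in these counts was not tested. The log2 fold change of *Ccl25* with culture was -0.61 (SE 0.30) in WT and -0.58 (SE 0.29) in KO-labelled libraries, neither called by edgeR (adjusted p = 0.114 and 0.122). Each was called in 1 of 17 alternatives. These were an offset for GC content and length in WT (-0.79, edgeR adjusted p = 0.0486) and library totals in KO-labelled libraries (-0.76, edgeR adjusted p = 0.0444). The WT value ran from -0.89 without the first WT library of day 0 to -0.27 without the second.

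*Cxcr5* (chromosome 9, 44511787 to 44561877, minus strand) encodes the receptor for CXCL13, known for bringing lymphocytes into B cell follicles. It was at 13.2 and 11.3 CPM in WT at day 0 and at 1.29 and 3.30 CPM in KO-labelled libraries. The genotypes did not overlap at day 0, with a log2 fold change of -2.53 (SE 0.50, edgeR with Benjamini-Hochberg adjustment, adjusted p = 0.0243). By day 5 the counts were 0 and 1 in WT and 3 and 1 in KO-labelled libraries, so that no genotype difference could be measured there. The ratio of day 0 to day 5 was 122 in WT (exact 95% counting interval 21.4 to 4841) and 5.17 in KO-labelled libraries (1.84 to 20.1), from 33 counts to 4 in the latter. Both changes with culture were called by edgeR (adjusted p = 3.40e-05 and 0.0198). The day 0 call rests on every library of the pair of groups but 1: without either WT replicate or without the first library labelled KO, the edgeR adjusted p was 0.117 to 0.251. Without the first library labelled KO the day 0 log2 fold change was -1.89, and without the second it was -3.20. The call with culture in KO-labelled libraries was lost without the second library of day 0 or of day 5 (edgeR adjusted p = 0.0971 and 0.131). Its fitted log2 fold change of -2.44 ran from -3.34 without the first KO-labelled library of day 5 to -1.74 without the second of day 0. In WT the fitted -6.64 became -5.53 without the first library of day 5 and -9.23 without the second, which left 0 counts at day 5, so that the last value is no bound. *Cxcr5* marks B cells as well as T cells. The B cell list, of which 94.0% of counts were *Ighm*, summed to 2195 to 2218 CPM in WT and 2043 to 2447 CPM in KO-labelled libraries at day 0, and to 1461 to 1470 CPM and 1588 to 1639 CPM at day 5. Of its 10 markers, 7 never exceeded 10 counts in a library and 2 were called lower with culture in each genotype. The part of this list in the result was not tested.

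Of the typical receptors described, *Ccr2* had the largest rise. *Ccr2* (chromosome 9, 124101950 to 124113557, plus strand) encodes the receptor for CCL2 and related ligands of inflamed tissue. It was at 1.25 and 2.49 CPM in WT and 0.686 and 4.04 CPM in KO-labelled libraries at day 0, and at 188 and 154 CPM and 257 and 172 CPM at day 5. No day 0 library reached any day 5 library, and the genotypes overlapped at both days. The log2 fold change with culture was 6.55 (SE 0.47) in WT and 6.84 (SE 0.44) in KO-labelled libraries (edgeR adjusted p = 2.14e-07 and 7.05e-08). In KO-labelled libraries it was 5.74 without the first library of day 0 and 8.24 without the second.

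*Ccr4*, the receptor for CCL17 and CCL22, was lower, at 0.715 and 0.226 CPM in WT and 0.429 and 0.551 CPM in KO-labelled libraries at day 0, and at 8.29 and 8.19 CPM and 9.01 and 13.8 CPM at day 5. It rose by a log2 fold change of 4.0 (SE 0.54) and 4.54 (SE 0.48), both called by edgeR (adjusted p = 6.03e-05 and 7.56e-06). The rise in WT was 5.07 without the first WT library of day 0 and 3.50 without the second. Myeloid cells also carry *Ccr2*. The myeloid marker list summed to 13.3 to 23.1 CPM at day 0 and to 35.1 to 75.2 CPM at day 5, 68.1% of its counts were *Cd68*, and the macrophage gene *Lyz2* had at most 1 count in any day 5 library. With culture edgeR called 1 of its 10 markers higher in each genotype, 2 lower in WT and 1 lower in KO-labelled libraries. The part of this list in the result was not tested.

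*Cxcr3* (chromosome X, 101731535 to 101734269, minus strand) encodes the receptor for the interferon-induced ligands CXCL9, CXCL10 and CXCL11, typical of effector and memory CD8+ T cells. It was already present at day 0, at 13.2 and 16.3 CPM in WT and 27.5 and 25.9 CPM in KO-labelled libraries. At day 5 it was at 91.0 and 74.9 CPM in WT and 87.2 and 67.2 CPM in KO-labelled libraries. The genotypes stood apart at day 0 and overlapped at day 5. The log2 fold change with culture was 2.50 (SE 0.20) in WT and 1.53 (SE 0.19) in KO-labelled libraries, both called by edgeR (adjusted p = 7.39e-07 and 2.46e-05). The genotype difference of 0.87 (SE 0.21) at day 0 fell short of the threshold in edgeR (adjusted p = 0.0589) and passed it in 4 of 16 alternatives, DESeq2 among them (adjusted p = 0.0285, range over the alternatives 0.00956 to 0.401). The interaction, -0.97 (SE 0.27), was not called (edgeR adjusted p = 0.191).

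*Cxcr6* (chromosome 9, 123806475 to 123811760, plus strand), whose product binds CXCL16 and is known from tissue-resident T cells, had the highest count of any chemokine gene and did not pass the test in any comparison. It was at 411 and 491 CPM in WT and 546 and 514 CPM in KO-labelled libraries at day 0, and at 773 and 398 CPM and 477 and 343 CPM at day 5. The day 5 WT libraries differed from each other more than the groups did. The log2 fold change with culture was 0.38 (SE 0.24) in WT and -0.37 (SE 0.24) in KO-labelled libraries, and that between genotypes was 0.23 (SE 0.24) at day 0 and -0.52 (SE 0.25) at day 5 (edgeR adjusted p = 0.223, 0.223, 0.759 and 0.371). Without the second WT library of day 5, the culture change in WT was 0.81 and was called by edgeR (adjusted p = 0.00349), and the genotype difference at day 5 was -0.92 and was called too (adjusted p = 0.0468). Without the first WT library they were -0.16 and 0.05. *Cxcr6* lies in an intron of *Fyco1* and shares no exon sequence with it.

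The other tested receptors were low. *Cxcr4*, the receptor for CXCL12, was at 1.47 to 4.55 CPM over the 8 libraries, and *Xcr1*, the XCL1 receptor of cross-presenting dendritic cells, at 0.241 to 4.52 CPM, neither called by edgeR in any comparison. The culture change of *Xcr1* in WT, a log2 fold change of -1.75 (SE 0.72, edgeR adjusted p = 0.0620), was called under 5 alternatives, library totals (-1.91, adjusted p = 0.0430) and an offset for GC content and length (-2.09, adjusted p = 0.0300) among them. Without the first WT library of day 5, which left 1 count in that group, the value was -3.68. The dendritic cell list summed to 9.27 to 14.9 CPM at day 0 and 5.64 to 8.52 CPM at day 5, with 81.6% of its counts in *Zbtb46*, and its part in the *Xcr1* level was not tested. In such bulk libraries, fewer cells of a type and less RNA per cell cannot be told apart.

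Some of the receptor genes are close neighbours. On chromosome 9, 6 of the receptor genes lie within 435 kb in the order *Ccr9*, *Cxcr6*, *Xcr1*, *Ccr1*, *Ccr3*, *Ccr2*. Within it the 2 ends moved in opposite directions with culture, *Ccr9* down and *Ccr2* up, in both genotypes. *Ccr1* and *Ccr3*, between them, had at most 3 and 5 counts in any library and were not tested.

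**Figure D2:**
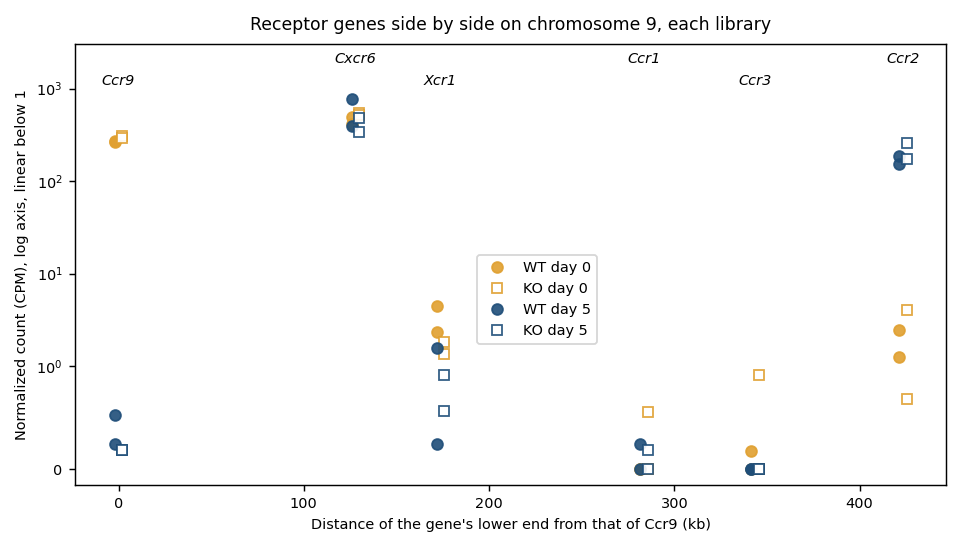
Normalized count (CPM, log axis that is linear below 1) of the 6 receptor genes on chromosome 9 against the distance of each gene's lower end from that of *Ccr9* in kb. Each point is a library, filled for WT and open for KO-labelled libraries, in yellow for day 0 and blue for day 5. *Ccr9* at 0 kb is high only at day 0, *Cxcr6* at 128 kb is high in all 8 libraries, and *Ccr2* at 424 kb is high only at day 5.

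The promoters of *Ccr9*, which fell, of *Cxcr6*, which was not called, and of *Ccr2*, which rose, are shown from this stretch to set these genes beside each other, with that of *Cxcr3*, a receptor on another chromosome that rose. They come from RefSeq (GRCm38.p6), with 250 bases before the start site and 50 from it on, and 45 of the 58 genes (12 of the 15 tested) had an entry. *Ccl5*, *Ccl4* and *Cxcr5* were the tested genes without an entry. Capitals mark matches, on either strand, to the E-box CANCTG, the RUNX core TGTGGT, the T-box site GGTGTG and the AP-1 site TGANTCA. A match is a description of letters and not a binding site. Over all 32851 promoters of the table, 51.4% held the E-box, 16.8% the RUNX core, 19.1% the T-box site and 7.81% the AP-1 site. *Ccr9* (chr9:123766961-123767260, plus strand) held 1 E-box and 1 T-box match, *Cxcr6* (chr9:123806227-123806526, plus strand) 1 RUNX match, *Ccr2* (chr9:124101933-124102232, plus strand) no match, *Xcr1*, which is not printed, no match either, and *Cxcr3* (chrX:101734098-101734397, minus strand) 1 E-box and 2 RUNX matches, the first of which adjoins the E-box.
Ccr9: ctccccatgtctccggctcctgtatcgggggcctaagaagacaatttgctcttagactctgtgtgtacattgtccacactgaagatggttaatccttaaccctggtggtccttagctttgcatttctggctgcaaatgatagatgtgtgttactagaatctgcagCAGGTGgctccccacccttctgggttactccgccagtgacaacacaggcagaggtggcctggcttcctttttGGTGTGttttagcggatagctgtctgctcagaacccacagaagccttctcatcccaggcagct
Cxcr6: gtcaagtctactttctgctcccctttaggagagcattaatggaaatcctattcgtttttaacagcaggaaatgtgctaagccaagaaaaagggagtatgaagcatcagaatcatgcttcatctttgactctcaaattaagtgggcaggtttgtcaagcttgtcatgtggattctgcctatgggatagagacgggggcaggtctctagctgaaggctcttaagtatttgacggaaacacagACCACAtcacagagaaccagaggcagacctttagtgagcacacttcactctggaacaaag
Ccr2: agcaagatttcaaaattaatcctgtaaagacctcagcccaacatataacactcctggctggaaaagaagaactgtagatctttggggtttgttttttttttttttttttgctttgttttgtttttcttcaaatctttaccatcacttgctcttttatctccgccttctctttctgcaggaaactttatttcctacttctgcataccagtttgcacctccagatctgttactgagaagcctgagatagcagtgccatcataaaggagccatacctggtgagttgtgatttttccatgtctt
Cxcr3: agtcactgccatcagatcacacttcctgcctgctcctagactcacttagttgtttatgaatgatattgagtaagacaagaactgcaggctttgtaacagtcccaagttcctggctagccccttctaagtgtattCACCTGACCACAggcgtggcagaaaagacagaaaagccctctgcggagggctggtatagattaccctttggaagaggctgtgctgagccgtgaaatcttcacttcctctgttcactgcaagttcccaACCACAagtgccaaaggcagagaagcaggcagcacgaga

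Of the atypical receptors, *Ccrl2* moved and *Ackr4* did not pass the test. *Ccrl2* (chromosome 9, 111054486 to 111057519, minus strand) encodes a receptor that binds chemerin without the classical G protein signal. At day 0 it had 3 counts and 0 counts in WT (0.537 and 0 CPM) and 33 and 10 counts in KO-labelled libraries (2.83 and 1.84 CPM). At day 5 it was at 33.7 and 37.1 CPM in WT and 32.2 and 32.6 CPM in KO-labelled libraries. The genotypes did not overlap at day 0, and at day 5 KO-labelled libraries stood just under WT. The day 0 ratio of KO-labelled libraries to WT was 8.39 (exact 95% counting interval 2.69 to 42.3), called by edgeR (adjusted p = 0.0374). That call was the least stable of the 3 at day 0. It held in 7 of 16 alternatives, whose adjusted p ran from 0.00115 to 0.223, and was lost when only the 4 day 0 libraries were fitted (edgeR adjusted p = 0.166). With culture *Ccrl2* rose by a ratio of 117 in WT (exact 95% counting interval 39.8 to 571) and by a log2 fold change of 3.71 (SE 0.31) in KO-labelled libraries, both called by edgeR (adjusted p = 1.43e-07 and 7.79e-07). Without the first WT library of day 0, which left 0 counts in that group, the fitted log2 fold change moved from 2.95 to 6.89 between genotypes and from 6.79 to 10.74 with culture in WT, and these values are no bounds. Without the second they were 2.15 and 5.995. The interaction was not called (edgeR adjusted p = 0.122), and was the lowest adjusted p of the 15. *Ackr4*, a scavenger of CCL19, CCL21 and CCL25, was at 2.29 to 5.30 CPM over the 8 libraries.

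Among the ligands, *Ccl5* carried the largest signal. *Ccl5* (chromosome 11, 83525778 to 83530518, minus strand) encodes RANTES, a ligand that memory and effector CD8+ T cells store and release. It was at 16.3 and 10.9 CPM in WT and 68.8 and 122 CPM in KO-labelled libraries at day 0, and at 199 and 116 CPM in WT and 472 and 235 CPM in KO-labelled libraries at day 5. KO-labelled libraries were above both WT libraries at each day. At day 0 the log2 fold change was 2.78 (SE 0.41, edgeR with Benjamini-Hochberg adjustment, adjusted p = 0.00400), and the call held in 14 of 16 alternatives. It was lost without either WT library of day 0 (edgeR adjusted p = 0.0744 and 0.1096). Calls over all genes at day 0 went from 227 to 38 and 49 in these fits. At day 5 the log2 fold change was 1.16 (SE 0.34) and was not called (edgeR adjusted p = 0.122). Leaving out 1 library of day 5 moved it from 0.57 without the first KO-labelled library to 1.62 without the first WT library. With culture *Ccl5* rose by 3.53 (SE 0.41) in WT and by 1.90 (SE 0.34) in KO-labelled libraries (edgeR adjusted p = 1.68e-05 and 0.000579). The difference between these rises, -1.62 (SE 0.52), was not called (edgeR interaction adjusted p = 0.247). NK cells and other T cells make *Ccl5* as well. The NK cell list summed to 1.36 to 1.61 CPM in WT and 0.772 to 1.28 CPM in KO-labelled libraries at day 0, and to 2.08 to 4.94 CPM at day 5. The CD4 and regulatory T cell list summed to 14.5 to 14.9 CPM in WT and 57.4 to 75.6 CPM in KO-labelled libraries at day 0, with *Foxp3* at 9.12 and 10.4 CPM against 43.8 and 65.9 CPM and *Cd40lg* at 1.61 and 1.13 CPM against 5.66 and 3.85 CPM. *Cd4* itself had 0 and 1 counts in WT and 7 and 5 counts in KO-labelled libraries at day 0, and *Foxp3* was the marker of this list that edgeR called higher there. *Zbtb7b*, of the same list, had 11 and 0 counts in WT and 0 and 7 in KO-labelled libraries. *Il2ra* had 10 and 14 counts against 86 and 20. The gamma delta T cell list summed to 55.1 to 84.3 CPM in WT and 86.4 to 86.6 CPM in KO-labelled libraries at day 0, mostly *Trdc*. Its marker *Tcrg-C1*, at 1.79 and 1.81 CPM in WT and 5.06 and 7.34 CPM in KO-labelled libraries, was called higher by edgeR. The part of these lists in the day 0 difference was not tested.

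*Ccl4* (chromosome 11, 83662584 to 83664683, plus strand), which encodes MIP-1 beta, an inflammatory ligand, was at 0.358 and 0.904 CPM in WT and 0.6005 and 3.12 CPM in KO-labelled libraries at day 0, and at 9.35 and 2.17 CPM and 7.36 and 3.79 CPM at day 5. The days did not overlap in either genotype, although replicates differed widely. It rose in WT by a log2 fold change of 3.25 (SE 0.95, edgeR adjusted p = 0.0128), a call lost without the first WT library of day 0 or of day 5 (adjusted p = 0.114 and 0.239). The change ran from 1.83 without the first WT library of day 5 to 3.99 without the second of day 0. In KO-labelled libraries the value was 1.78 (SE 0.77, edgeR adjusted p = 0.0709), called in 5 of 17 alternatives (adjusted p 0.00280 to 0.390). It ran from 0.85 without the first KO-labelled library of day 0 to 3.17 without the second. The difference between these changes was not called (edgeR interaction adjusted p = 0.697). *Ccl3*, its neighbour and partner, had 0 counts in all 4 day 0 libraries, and 15 and 3 counts in WT and 7 and 6 counts in KO-labelled libraries at day 5 and did not pass the filter on low counts. Without that filter edgeR called its rise in WT and in KO-labelled libraries (adjusted p = 0.00113 and 0.000761). *Ccl5*, *Ccl9*, *Ccl6*, *Ccl3* and *Ccl4* lie within 139 kb, and *Ccl6* and *Ccl9* had at most 2 counts in any library.

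*Xcl1* (chromosome 1, 164931644 to 164935527, minus strand) encodes lymphotactin, the ligand by which CD8+ T cells attract dendritic cells that carry XCR1. It was at 1.79 and 0.678 CPM in WT and 4.12 and 4.22 CPM in KO-labelled libraries at day 0, and at 1.41 and 0.723 CPM and 0.736 and 0.568 CPM at day 5. KO-labelled libraries of day 0 stood above all 6 others. The genotype difference there was 1.69 on the log2 scale (SE 0.56), which edgeR did not call (adjusted p = 0.195). It was 2.58 without the first WT library of day 0 and 1.21 without the second. The change with culture was -2.63 (SE 0.62) in KO-labelled libraries, called by edgeR (adjusted p = 0.00355), and -0.21 (SE 0.68) in WT (adjusted p = 0.828). The difference between these changes was not called (edgeR interaction adjusted p = 0.332). Of its exon length 18.7% is shared with a gene of the other strand. *Cxcl10*, an interferon-induced CXCR3 ligand, was at 0.241 to 2.47 CPM and was not called in any comparison.

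**Figure D3:**
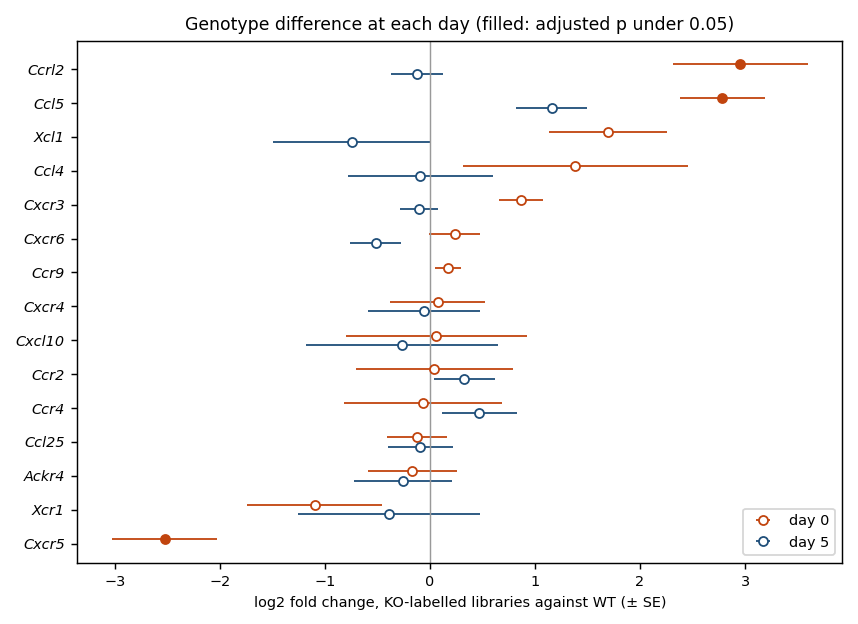
Log2 fold change of KO-labelled libraries against WT with its SE for the 15 tested chemokine and receptor genes, at day 0 in orange and at day 5 in blue. Filled points passed an adjusted p of 0.05, and *Ccr9* and *Cxcr5* are left out at day 5, where no library had more than 3 counts. *Ccrl2* and *Ccl5* to the right and *Cxcr5* to the left are the 3 filled points, all at day 0.

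**Figure D4:**
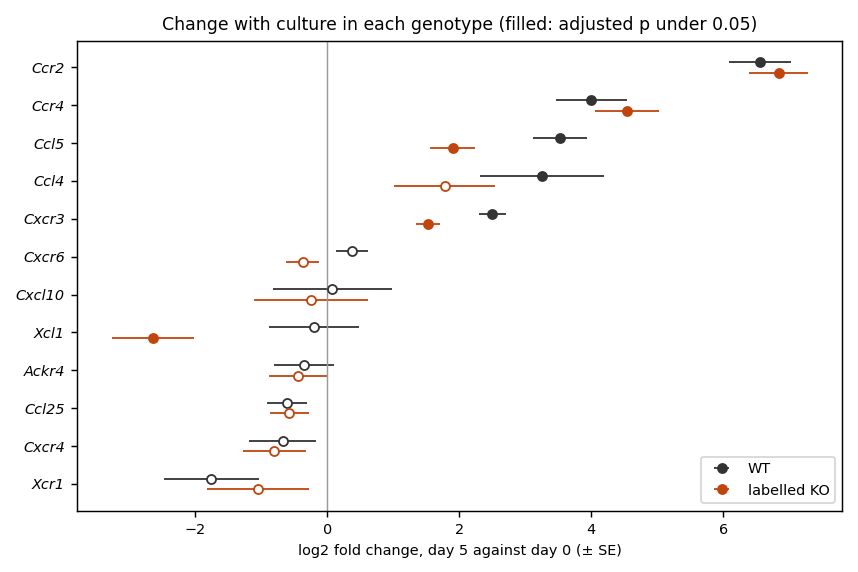
Log2 fold change of day 5 against day 0 with its SE in WT (black) and in KO-labelled libraries (orange) for 12 of the tested genes. Filled points passed an adjusted p of 0.05, and *Ccr9*, *Cxcr5* and *Ccrl2* are left out because a group of theirs is near 0 counts. *Ccr2* lies at 6.55 in WT and 6.84 in KO-labelled libraries, and *Xcl1* is at -2.63 in KO-labelled libraries.

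Divided by exon length, which sets genes of unlike length on a common scale, the order of the levels changed with culture. The length joins all annotated exons of a gene, 10260 bases for *Ccr9* and 960 for *Ccl5*. The order between genes therefore depends on the annotation, and the transcripts in use were not examined. In WT at day 0 the mean levels were 233 CPM per kb for *Cxcr6*, 26.0 for *Ccr9*, 14.1 for *Ccl5*, 8.53 for *Cxcr3* and 3.68 for *Cxcr5*. In KO-labelled libraries at day 0 *Ccl5* came second, at 99.6 ± 39.5 CPM per kb (SD, n = 2), after *Cxcr6* at 274 and before *Ccr9* at 29.3 and *Cxcr3* at 15.4. In WT at day 5 the leading levels were 303 ± 138 CPM per kb for *Cxcr6*, 164 ± 61.6 for *Ccl5*, 47.9 for *Cxcr3* and 25.3 for *Ccr2*. In KO-labelled libraries at day 5 they were 368 ± 174 CPM per kb for *Ccl5*, 212 ± 49.1 for *Cxcr6*, 44.6 for *Cxcr3* and 31.8 for *Ccr2*. *Cxcr6* and *Ccl5* are neighbours in that order at day 5, and as groups they do not stand apart beyond the spread of their libraries in either genotype. Within each day 5 library, however, *Cxcr6* was above *Ccl5* in WT and below it in KO-labelled libraries.

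Downstream of the receptors, more of the signalling genes tested fell than rose with culture. Of a list of 54 genes of chemokine signalling and its control (G protein subunits, regulators of small GTPases, receptor kinases, arrestins and RGS proteins), 52 were in the files and 47 were tested. With culture 30 of the 47 were called in WT, 10 higher and 20 lower, and 30 in KO-labelled libraries, 12 higher and 18 lower, which is 63.8% of the list in each, beside 48.3% and 50.2% of all genes tested. With library totals in place of TMM scaling 10 rose and 23 fell in WT, and 8 rose and 24 fell in KO-labelled libraries. With an offset for GC content and length, 12 rose and 22 fell in WT, and 10 rose and 21 fell in KO-labelled libraries. The split over all genes moved the same way, from 3112 higher and 2969 lower in WT to 2668 and 3560 with library totals and 2622 and 3471 with the offset. For KO-labelled libraries it went from 3296 and 3029 to 2755 and 3936 and to 2811 and 3675. The list's median log2 fold change was -0.22 in WT and -0.12 in KO-labelled libraries, where the medians over all genes tested were -0.04 and -0.05.

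The RGS proteins, which switch off G protein signals, moved in both directions. *Rgs1*, known as a brake on lymphocyte migration, was at 10.9 and 9.50 CPM in WT and 34.6 and 24.8 CPM in KO-labelled libraries at day 0, and at 67.0 and 82.4 CPM and 79.3 and 85.2 CPM at day 5. It was the only gene of the list called between genotypes at day 0, with a log2 fold change of 1.55 (SE 0.22, edgeR adjusted p = 0.00340), a call lost without either WT library of day 0, where calls over all genes fell from 227 to 38 and 49. That 1 edgeR call is 2.13% of the list, beside 1.80% of all genes tested. DESeq2 called 3 of the 52 listed genes it was fitted to there, beside 277 of all 34404. *Rgs1* rose with culture by 2.86 (SE 0.22) in WT and 1.45 (SE 0.19) in KO-labelled libraries. *Rgs18* went from 2 and 0 counts in WT and 1 and 8 in KO-labelled libraries at day 0 to 41.6 to 51.1 CPM over the day 5 libraries. *Rgs2* fell, with log2 fold changes of -3.18 (SE 0.35) in WT and -2.06 (SE 0.30) in KO-labelled libraries, and so did *Rgs10*, with -1.70 (SE 0.22) and -1.51 (SE 0.22). Among the G protein subunits *Gnaq* rose by 2.55 (SE 0.34) and 2.26 (SE 0.33), *Gng12* by 2.53 (SE 0.40) and 2.47 (SE 0.36) and *Gng2* by 2.02 (SE 0.19) and 3.0 (SE 0.19). *Rasgrp2*, the activator of RAP1 ahead of the integrins, had log2 fold changes of -2.40 (SE 0.17) and -1.89 (SE 0.17), and *Arhgef1*, a guanine nucleotide exchange factor, of -1.51 (SE 0.27) and -1.63 (SE 0.27). Each of these culture changes was called by edgeR with Benjamini-Hochberg adjustment.

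Between genotypes at day 5, when no chemokine gene was called, 5 of the 47 signalling genes were, all higher in KO-labelled libraries, which is 10.6% of the list beside 1.63% of all genes tested. Most calls over all genes were also higher there, 165 of 205. The median of the list was 0.21 on the log2 scale, against 0 over all genes tested. *Gnb4*, a G protein beta subunit, was at 24.2 and 36.6 CPM in WT and 73.0 and 72.9 CPM in KO-labelled libraries, with a log2 fold change of 1.27 (SE 0.22, edgeR adjusted p = 0.0122). *Tln1*, encoding the integrin activator talin, was at 54.1 and 47.0 CPM and 93.6 and 93.3 CPM, a log2 fold change of 0.88 (SE 0.17). *Grk6*, a kinase that desensitises receptors, differed by 0.69 (SE 0.14), *Dock2*, the RAC activator of migrating lymphocytes, by 0.68 (SE 0.12), and *Rac2* by 0.46 (SE 0.10). The genotypes did not overlap for any of these 5 at day 5. *Rac2* was called in 7 of its 16 alternatives and *Grk6* in 8, *Dock2* and *Tln1* in 12 and *Gnb4* in 13. The count of 5 fell to 2 with an offset for GC content and length and to 2 with only the 4 day 5 libraries, where calls over all genes went from 205 to 119 and 147. It was 3 without either WT library of day 0 (121 and 119 over all genes), 1 without the second WT library of day 5 (84), and 0 without either KO-labelled library of day 5 (54 and 32). None of the 47 was called for the interaction by edgeR. DESeq2 called 2 of the 52 it was fitted to, beside 139 of all 34404 genes. In edgeR 14 of the 47 had an unadjusted p under 0.05, as did 1562 of all 12597 genes tested. The adjusted p of *Grk6* was 0.0565 in edgeR.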

How the data were processed

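RNA sequencing of 8 libraries of splenic CD8+ T cells was used, in 4 groups of 2 given by the labels. The authors deposited raw read counts per gene symbol. Per the submitters' processing notes, reads were aligned with HISAT2 2.1.0 (GRCm38) and counted with HTSeq 0.11.1. The annotation and strand setting were not given in the sources used here, and reads aligned to several places were left uncounted. Of all records, 21.2% to 24.5% were assigned to a gene. Counts were scaled by TMM and tested in edgeR 4.0.16 (R 4.3.3) by the quasi-likelihood test in 1 fit of all 8 libraries, with 4 residual degrees of freedom. The filterByExpr function, with a minimum count of 10, kept 12597 genes, and p-values were adjusted over them (Benjamini-Hochberg, threshold 0.05). DESeq2 1.42.0 was an alternative. The procedure was tested on simulated data. Positions and exon lengths came from GENCODE M21. Genes were named if their mean reached 10 CPM in a group or if they were called. The signalling genes named are those called between genotypes and, for culture, the 3 leading in each direction with at least 10 CPM. The genes and lists were chosen with earlier results of these data known. 2 receptor genes are not reported here.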

Additional observations from a re-analysis of the deposited data

How the results depend on the processing

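With culture, 7 to 11 chemokine genes were called under every alternative tried, against 8 in each genotype. The 11 came without a filter on low counts, where 47 were tested. In fits that kept all libraries of the comparison, calls over all genes ran from 5179 of 34404 (DESeq2, WT) to 6691 of 12597 (library totals, KO-labelled libraries). The main fit called 6081 in WT and 6325 in KO-labelled libraries. Those between genotypes depended more on the processing. At day 0, 3 genes were called, and leaving out 1 library at a time gave 0 to 4, with 0 without either WT library of day 0 and 1 without the first library labelled KO of day 0, where calls over all genes went from 227 to 38, 49 and 200. At day 5, none was called, and without a filter on low counts 2 were (*Ccl5* and *Cxcr6*), beside 418 of all 34404 genes against 205 of 12597, while leaving out 1 library gave 0 to 1. For the interaction, 3 were called without a filter (*Ccrl2*, *Ccl5* and *Cxcr6*), beside 154 of all 34404 genes against 20 of 12597, and 0 otherwise. A group reduced to 1 library was assumed to vary like the others. The cause of these moves was not tested.

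The labels share replicate numbers. Deviations of same-numbered libraries correlated at 0.118 and 0.228 between days within a genotype and at -0.0742 to 0.00438 between genotypes. The main fit did not take the numbers as pairs, as no source pairs libraries with animals. For the interaction, a block within each genotype gave 55 calls over all 12597 genes, against 20 without it, and 0 of the 15. With a replicate block, 2 genes were called at day 0 and 0 at day 5, against 3 and 0 without it. Over all 12597 genes tested that block gave 216 and 215 calls, against 227 and 205. *Ccrl2* at day 0 had an edgeR adjusted p of 0.0523 with the block. With the block set within each genotype, the culture rise of *Ccl4* in KO-labelled libraries was called (edgeR adjusted p = 0.0334), as it was with the edgeR 4 form (0.0336) and without a filter (0.00280).

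Some small, uncalled log2 fold changes turned sign. With an offset for GC content and length, *Ccr2* at day 0 was -0.11 and *Cxcr6* with culture in WT was -0.060. With library totals in place of TMM, the interaction of *Ccl25* was -0.0043. Leaving out 1 library at a time, the genotype difference at day 0 ran from -0.41 to 0.20 for *Ccl25*, -1.34 to 1.15 for *Ccr2* and -0.58 to 0.99 for *Ccr4*. At day 5 it ran from -0.27 to 0.16 for *Ccl25*, -0.74 to 1.36 for *Ccl4*, -0.31 to 0.068 for *Cxcr3* and -0.92 to 0.052 for *Cxcr6*. The culture change in WT ran from -0.78 to 0.69 for *Xcl1* and -0.16 to 0.81 for *Cxcr6*, and the interaction from -0.30 to 0.32 for *Ccl25*, -0.82 to 1.65 for *Ccr2* and -0.53 to 1.05 for *Ccr4*. Library totals moved the culture median over all genes, on the log2 scale, by -0.14 in WT and -0.18 in KO-labelled libraries, and the GC and length offset by -0.14 in each. At these depths the filter left out genes under about 10 counts a library, which some alternatives tested.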
